A study of Bos taurus with 12 samples.

Results

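Of the 838705 CpG positions tested between young and old bovine dermal fibroblast cultures, the deposited list of differentially methylated CpGs held 14094, and 4414 of these were annotated to the promoter, exon or intron of a gene. The positions described here are the 77 listed ones whose gene symbol begins as those of the WNT, Frizzled (FZD), LRP, AXIN, TGFB, SMAD, BMP, GDF, LTBP, FGF, NOTCH, JAG, IGFBP, PDGF, EGF, VEGF and EPH receptor families do. They lay in 35 of the 2293 genes of the list. All 77 belonged to WNT, TGF-beta and BMP, FGF and ephrin receptor genes. Notch is part of the working name of this group, but 0 listed positions were annotated to a NOTCH or JAG gene, and 0 to an IGFBP, PDGF, EGF or VEGF gene. The symbol match also took in TGFB1I1, a focal adhesion adaptor protein, and FGFR1OP2, which are named after these pathways without being ligands or receptors of them.

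The cultures were primary dermal fibroblasts at passage 6, from 6 Holstein heifers that were each sampled at 5 months of age (6 young cultures) and again at 16 months (6 old cultures). None of the cultures was treated, and no gene was altered. The methods state that these animals were chosen from a larger cohort as mid-responders to lipopolysaccharide, so they do not cover the full range of that cohort. Methylation was measured by reduced representation bisulfite sequencing (RRBS), which reads CpG-rich fragments of cut DNA. The methods state cutting with the enzyme TaqαI and then with MspI, which cuts at CCGG. Expression was not analysed here, so the fibroblast label was not checked against marker genes.

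WNT proteins bind Frizzled receptors with LRP co-receptors, and in one branch of the pathway this stops the AXIN-containing complex from degrading beta-catenin. TGF-beta is secreted in a latent form that is bound to the extracellular matrix by latent TGF-beta binding proteins (LTBPs). TGF-beta and BMP receptors signal through SMAD proteins. FGF receptors are tyrosine kinases that drive fibroblast growth, and EPH receptors respond to ephrins on the surface of neighbouring cells. In skin these pathways guide dermal growth, hair follicle formation, matrix deposition and wound repair. Methylation of CpGs in promoters is often linked with low expression, while methylation within gene bodies has no such fixed relation.

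The methylation ratio of a position is the share of its reads that carried a cytosine, given below in percent for 1 strand in 1 culture. Differences are the mean over the 6 animals of the ratio of the young culture minus that of the old culture, in percentage points with the SD over animals, so a negative value means more methylation in the old cultures. Positions are given in bosTau8 coordinates, counted from 1. The methods also write BTau_4.6.1, which is another assembly, and the coordinates were not checked against a genome. Positions entered the deposited list by an unadjusted P below 0.05 and a mean difference of about 10 points or more in this same contrast. Direction and size at the 77 positions are therefore descriptions, and no test of them is given. The list comprised 1.68% of the tested positions, and the same paired rule recomputed on all tested positions called 14129 (1.68%), with 0 passing Benjamini-Hochberg adjustment. Read numbers limited each value. Total coverage at tested positions was 25962640 to 28820145 reads in the young cultures and 19007741 to 31643295 in the old ones, and at the 77 positions a culture had 5 to 39 reads. A ratio of 50% from 5 of 10 reads has a 95% Wilson interval of 23.7 to 76.3%, and 10 of 20 reads give 29.9 to 70.1%. Intervals cover counting error only.

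Young cultures had the higher methylation at 48 of the 77 positions and old cultures at 29 (62.3% higher in young cultures, against 67.6% of all annotated listed positions). Of all tested positions, 1.12% were called with more methylation in young cultures and 0.567% with more in old cultures. The recomputed rule called 75 of the 77, all but WNT5A at 46108912 and WNT7A at 58830938. A test without pairing by animal, which called 1.91% of all tested positions, called 34 and 20 of the 77 in these directions. Among differences of at least 25 points, 8 positions were higher in young cultures and 12 higher in old ones. The 12 included all 4 positions of TGFB1I1 (sizes of 29.7 to 35.8 points), which lie within 191 bp. The split of the annotated list at this size is not given here. The differences at the 77 positions ran from -35.8 to 39.8 points. Their median size was 17.0 points, against 18.7 points over the annotated list. All tested positions, which were under no minimum difference, had a median of 1.5 points. For positions more methylated in young cultures the median size was 15.8 points (19.5 over the annotated list), and for those more methylated in old cultures it was 20.5 points (16.5 over the annotated list). Of the 35 genes, 19 held only positions more methylated in young cultures, 9 only positions more methylated in old cultures, and 7 held both kinds. The 7 were all among the 12 genes with 3 or more listed positions (58.3%, against 48.5% of the 456 genes of the list with that many).

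**Figure D1:**
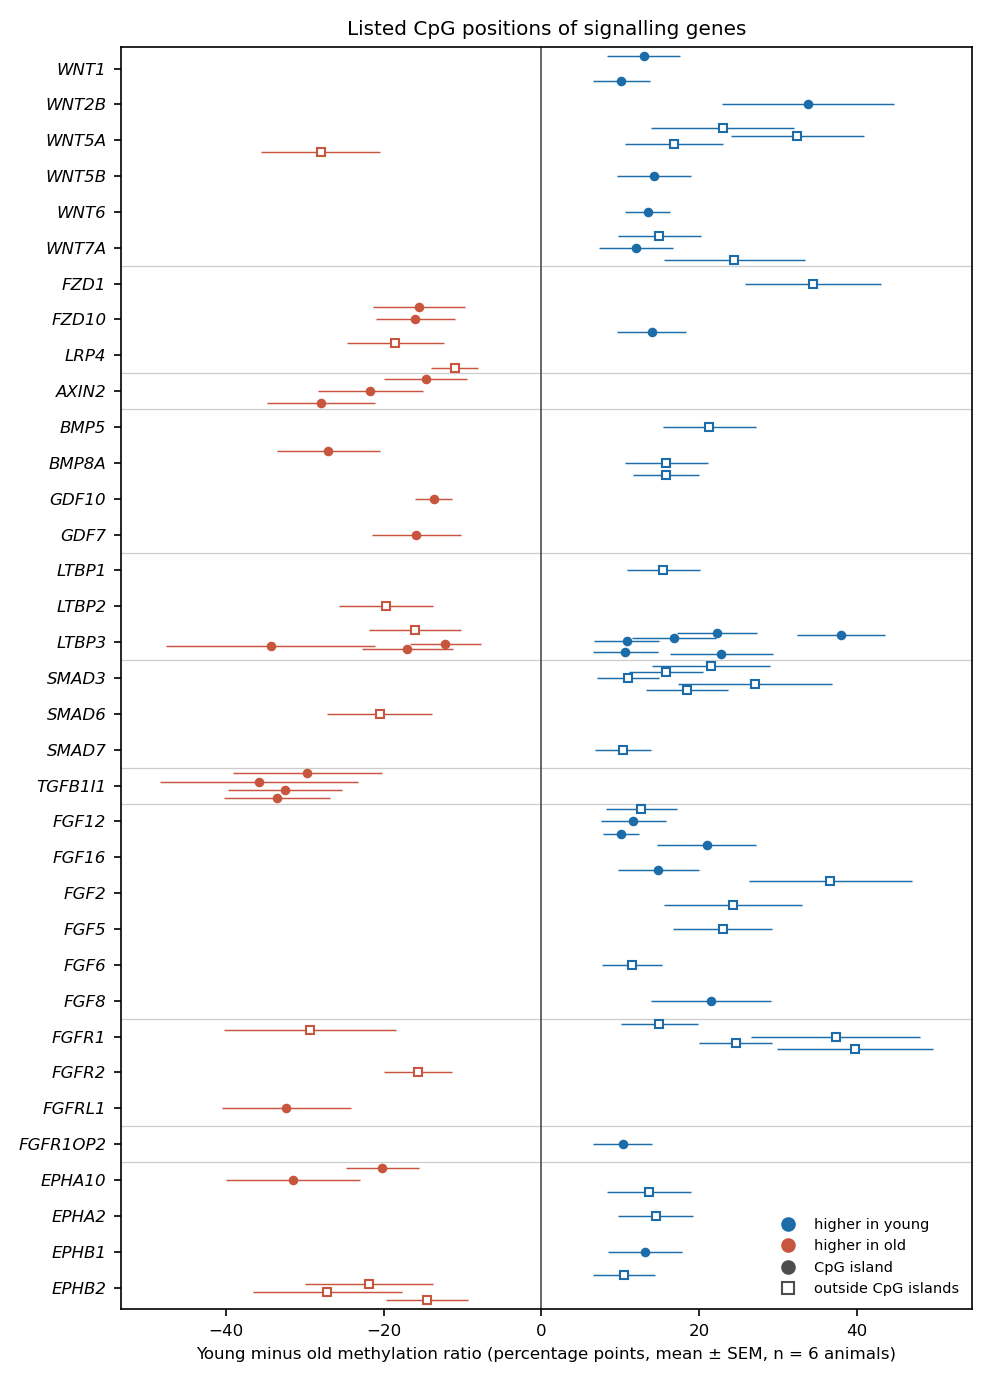
Each point is 1 of the 77 listed positions, placed by its mean young minus old difference in percentage points (x axis, bars are the SEM over 6 animals) in the row of its gene (y axis, grouped by family). Filled circles lie in CpG islands and open squares outside them; the FGF ligand rows hold points only on the right and the TGFB1I1 and AXIN2 rows only on the left.

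The 77 positions were in 13 cases annotated to a promoter (within 2.5 kb upstream to 1 kb downstream of a transcription start site), in 30 to an exon and in 44 to an intron, and 1 position can carry more than 1 of these classes. Exons took 39.0% of the positions against 23.9% of the annotated list, promoters 16.9% against 25.3% and introns 57.1% against 65.5%. CpG islands held 38 of the 77 (49.4%, against 31.9% of the annotated list). By direction, islands held 20 of the 48 positions more methylated in young cultures (41.7%, against 32.6%) and 18 of the 29 more methylated in old cultures (62.1%, against 30.5%). A few genes weighed on these shares. The LTBP genes gave 9 of the 30 exon positions and 9 of the 38 island positions, some lying a few bp apart. AXIN2 and TGFB1I1 gave 3 and 4 of the island positions, all more methylated in old cultures. Most positions were partly methylated, as on the whole list. Of the 77, 49 had a mean ratio over the 12 cultures from 20 to 80%, 20 lay below 20% and 8 at 80% or more. The whole list had 65%, 21.4% and 13.6% in these classes, and all tested positions had 22%, 66.2% and 11.8%. Positions of 1 gene at most 100 bp apart were joined into 56 loci, 33 more methylated in young cultures, 22 in old cultures and 1 in LTBP3 with both directions.

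Among the secreted WNT ligands, 11 of 12 positions in 6 genes were more methylated in young cultures (against 67.6% of the annotated list), with a median size of 15.9 points. The 12 were not all separate places. WNT1 held 2 positions in 1 locus, and WNT5A held 4 in 2 loci. WNT2B, a ligand of the beta-catenin branch, had the largest difference of the 12, in a CpG island at its promoter and intron (chromosome 3, 30956924). Young cultures ranged from 8 to 64% with a median of 45.5%, and old cultures from 0 to 20% with a median of 3.0%. The difference was 33.8 ± 26.7 points (SD, n = 6), and in animal 2 it had the opposite sign. The 6 tested neighbours within 100 bp that were not listed were also higher in young cultures, by 9.22 points on average.

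WNT5A, a ligand best known for signalling without beta-catenin, held both directions in 1 intron stretch of 517 bp on chromosome 22. The 3 listed positions between 46108912 and 46108951 were more methylated in young cultures. At the middle one (46108930) young cultures ranged from 23 to 62% (median 52.5%) and old cultures from 0 to 44% (median 15.5%), a difference of 32.5 ± 20.7 points with the same sign in all 6 animals. Further along, at 46109429, young cultures ranged from 17 to 88% (median 71.0%) and old cultures from 75 to 100% (median 91.5%), a difference of -28.0 ± 18.5 points, again with 1 sign in all 6 animals. The 2 stretches thus differed in level as well as direction, the first being the less methylated one at both ages. The values of the ages overlapped at both positions.

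WNT7A, which patterns limbs and is expressed in epithelia, had 3 listed positions, all more methylated in young cultures and each in a locus of its own. In its intron at chromosome 22, 58832246, young cultures ranged from 20 to 50% (median 38.0%) and old cultures from 0 to 43% (median 3.0%), a difference of 24.5 ± 22.0 points. On the other strand of this CpG it was 9.83 points, and 15.6 with both strands merged. The other WNT7A positions were almost fully methylated in young cultures, with means of 94.0 and 96.5%, and differed by 15.0 and 12 points. Both had that sign in 4 animals and no difference in the others. The second (58830938) was not called by the recomputed rule, and its 6 unlisted neighbours averaged -2.39 points. WNT1, the founding member of the family, held 2 exon positions 3 bp apart (13.0 and 10.2 points). WNT5B and WNT6 each held 1 exon position in a CpG island, with differences of 14.3 and 13.5 points, and that of WNT6 had the same sign in all 6 animals.

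The WNT receptor genes were mixed, with 2 of 6 positions higher in young cultures and 4 higher in old cultures. FZD1, a Frizzled receptor, gave 1 of the 3 positions at which the ages did not overlap, in its exon (chromosome 4, 8493190). Young cultures ranged from 43 to 71% (median 56.0%) and old cultures from 0 to 33% (median 24.0%), and the difference was 34.5 ± 21.1 points on a mean coverage of 8.83 reads. No other tested position lay within 100 bp of it.

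FZD10, another Frizzled receptor, held 3 positions within 611 bp of its CpG island on chromosome 17. At 47936602, in the promoter and exon, young cultures ranged from 0 to 33% (median 16.0%) and old cultures from 18 to 50% (median 32.5%), a difference of -16.0 ± 12.2 points. At 47936770 the order was the opposite, with young cultures at 7 to 40% (median 13.0%) and old cultures at 0 to 13% (median 3.0%), a difference of 14.0 ± 10.6 points. On its other strand, the same CpG differed by 0.167 points, and with both strands merged by 6.62 points. LRP4, a co-receptor that binds WNT inhibitors as well as agrin, had 2 positions at 132 bp from each other, both more methylated in old cultures (-18.5 and -11.0 points).

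AXIN2, a scaffold of the complex that degrades beta-catenin and itself a target gene of the pathway, held 3 positions, all in CpG islands and all more methylated in old cultures. The promoter and exon position at chromosome 19, 62860553 was the second at which the ages did not overlap. Young cultures ranged from 42 to 65% (median 52.5%) and old cultures from 69 to 100% (median 81.0%), and the difference was -28.0 ± 16.8 points. Of the 5 unlisted positions within 100 bp, 4 were also higher in old cultures, with a mean over the 5 of -11.9 points. The other AXIN2 positions, in an intron 17 bp apart, differed by -14.7 and -21.7 points (-9.34 and -20.1 with both strands merged), and their 9 unlisted neighbours were all higher in old cultures.

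**Figure D2:**
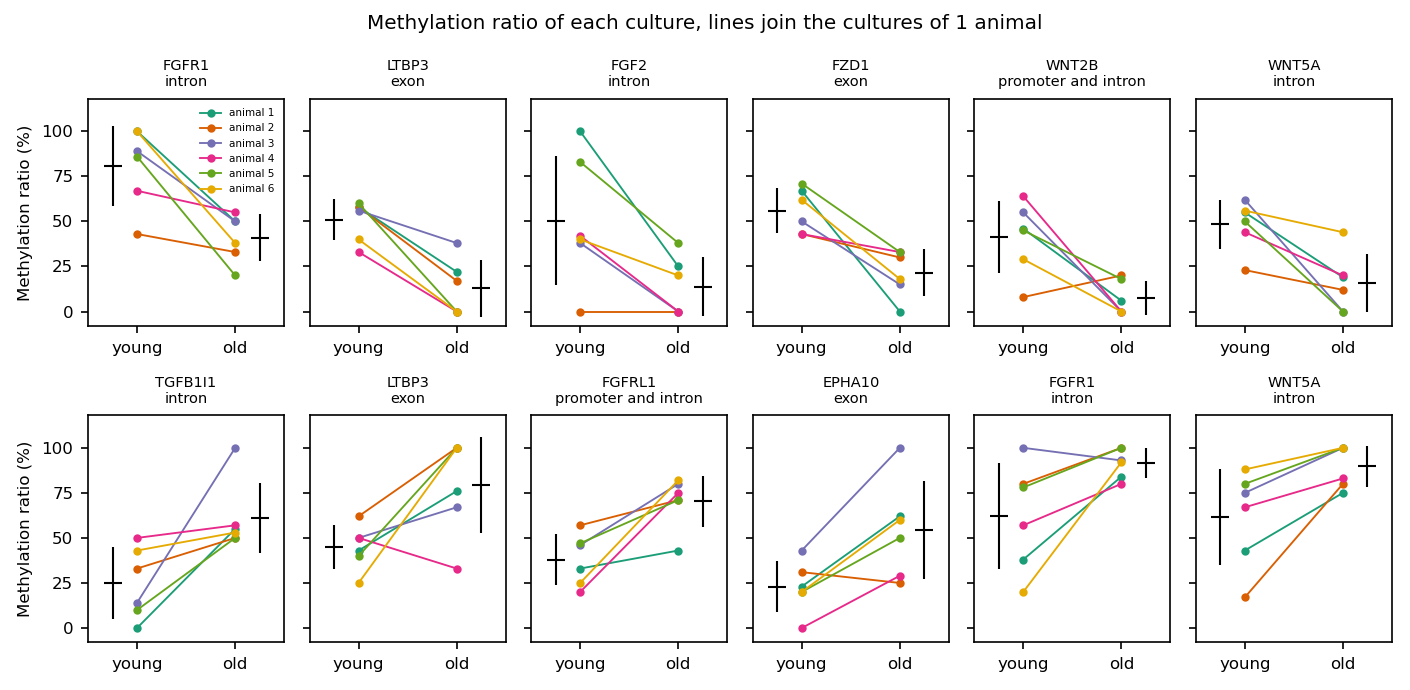
Each panel shows the methylation ratio in percent (y axis) at 1 listed position in the 6 young and 6 old cultures (x axis), with a line for each animal and, beside the points, the mean and SD of each age. The upper panels are the 6 largest differences with more methylation in young cultures, 1 per gene, and the lower panels the 6 largest with more methylation in old cultures; most but not all lines run the same way, as in WNT2B, where animal 2 goes from 8 to 20%.

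The BMP and GDF ligand genes were split evenly, with 3 positions in each direction. BMP5 held 1 position in its promoter and exon, outside a CpG island (chromosome 23, 4390737). Young cultures ranged from 26 to 71% (median 61.5%) and old cultures from 0 to 67% (median 34.5%), and the difference of 21.3 ± 14.5 points had the same sign in all 6 animals. The 1 unlisted neighbour differed by 15.0 points in the same direction.

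BMP8A held both directions at distant places of chromosome 3. In an exon inside a CpG island (107139191), young cultures ranged from 0 to 38% (median 19.0%) and old cultures from 36 to 64% (median 42.0%), a difference of -27.0 ± 15.9 points. In an intron outside islands (107168132), young cultures ranged from 36 to 50% (median 40.0%) and old cultures from 9 to 50% (median 21.0%), a difference of 15.8 ± 12.9 points, and a second position 8 bp away also differed by 15.8 points. GDF7 and GDF10 had 1 position each in a CpG island, both sparsely methylated and more so in old cultures. The exon position of GDF7 was the third without overlap, with young cultures at 0 to 11% and old cultures at 12 to 38%, and a difference of -15.8 ± 13.7 points on a mean coverage of 7.42 reads. The promoter position of GDF10 differed by -13.7 ± 5.85 points.

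The LTBP genes held 12 positions, 7 higher in young cultures and 5 higher in old cultures. Of these, 10 lay in LTBP3, a binding protein of latent TGF-beta, the highest count of the 35 genes. Over the whole list, 27 genes held more. The LTBP3 positions fell into 6 loci over 18940 bp of chromosome 29, 6 higher in young cultures and 4 higher in old cultures, and 9 of them lay in CpG islands. The largest difference in young cultures was in an exon at 44382640, where young cultures ranged from 33 to 60% (median 57.0%) and old cultures from 0 to 38% (median 8.5%). It came to 38.0 ± 13.6 points with the same sign in all 6 animals, but the other strand of the same CpG differed by 3.33 points, and with the reads of both strands merged the difference was 14.6 points. The listed position 9 bp away differed by 22.3 points, and its other strand by 20.5 points.

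In the opposite direction, the LTBP3 exon position at 44392166 had young cultures at 25 to 62% (median 46.5%) and old cultures at 33 to 100% (median 88.0%). The difference was -34.3 ± 32.4 points, the widest spread over animals of the named positions, and animal 4 went the other way. At the promoter and intron of LTBP3 (44400145), young cultures ranged from 24 to 59% (median 35.5%) and old cultures from 10 to 29% (median 14.5%), a difference of 22.8 ± 16.1 points. The other strand of this CpG differed by 4.33 points, and both strands merged by 15.1 points. Its 11 unlisted neighbours had low ratios at both ages, 7.12% in young and 6.14% in old cultures, and differed by 0.985 points on average. LTBP1, the first binding protein described, had 1 intron position more methylated in young cultures (15.5 ± 11.5 points), and LTBP2, which does not bind latent TGF-beta, had 1 more methylated in old cultures (-19.7 ± 14.7 points).

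SMAD3, which carries the TGF-beta signal to the nucleus, held 5 intron positions on chromosome 10, all more methylated in young cultures and all outside CpG islands. At 13979462 young cultures ranged from 12 to 67% (median 41.5%) and old cultures from 0 to 33% (median 13.0%), a difference of 27.2 ± 23.9 points. Its partner on the other strand was listed as well (13979463) and differed by 18.5 ± 12.7 points. Around these, 11 of 13 unlisted positions were higher in young cultures, by 6.77 points on average over the 13. For the SMAD3 positions at 13958985 (21.5 points) and 13979394 (15.8 points), the other strand differed by -0.667 and -3.17 points, and merging the strands gave 10.2 and 9.64 points.

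The inhibitory SMADs each held 1 intron position. In SMAD6, which mainly restrains BMP signalling (chromosome 10, 13577993), young cultures ranged from 11 to 56% (median 25%) and old cultures from 29 to 86% (median 33.0%), a difference of -20.5 ± 16.3 points. In SMAD7, which restrains TGF-beta signalling, all 6 old cultures were at 0% and young cultures ranged from 0 to 18%, a difference of 10.3 ± 8.69 points. By an approximate upper limit of 3 divided by the reads, a ratio of 0% on 5 reads allows a share of up to 60%, and on 30 reads up to 10%. That limit is rough, and too wide, at few reads. Over all 77 positions 121 of 924 values were at 0%, 33 in young and 88 in old cultures. That split cannot be read apart from the selection, since 48 of the 77 positions were listed with less methylation in old cultures.

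TGFB1I1, an adaptor of focal adhesions that is induced by TGF-beta, held only positions with more methylation in old cultures. Its 4 positions lay in a CpG island in an intron, within 191 bp of chromosome 25, and their median size, 33.0 points, was the highest of the 11 gene groups described. At 27765660 young cultures ranged from 0 to 50% (median 23.5%) and old cultures from 50 to 100% (median 54.0%). The difference was -35.8 ± 30.8 points, and the ranges met at 50%. Its partner on the other strand, also listed, differed by -32.5 ± 17.6 points, and the position at 27765843 by -33.5 ± 16.4 points. Of the 9 unlisted positions within 500 bp, the differences ran from -30.2 to 6.17 points with a mean of -13.8.

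**Figure D3:**
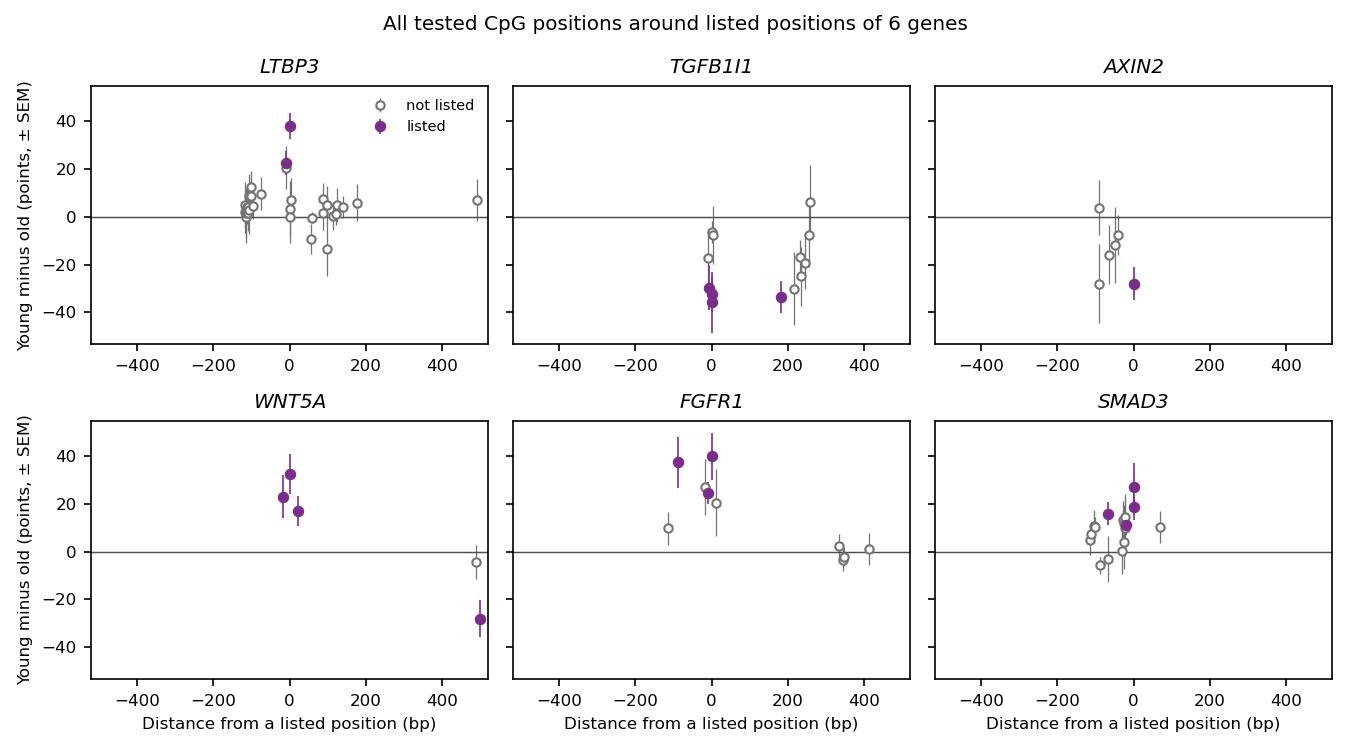
Each panel shows the tested positions within 500 bp of 1 listed position in the gene named above it, by distance in bp (x axis) and mean young minus old difference in percentage points (y axis, bars are the SEM over 6 animals). Filled points are listed and open points are not; around TGFB1I1 the unlisted positions average -13.8 points, and around LTBP3 the 30 unlisted positions average 3.74 points beside listed ones at 38.0 and 22.3.

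FGF ligand genes held 10 positions in 6 genes, and all 10 were more methylated in young cultures (against 67.6% of the annotated list), with a median size of 17.9 points. The 10 were not all separate places. FGF2 and FGF16 each held 2 positions in 1 locus, and FGF12 held 3 in 2 loci. FGF2, a growth factor for fibroblasts, had the largest of the 10 differences, in an intron at chromosome 17, 35255826. Young cultures covered the whole scale from 0 to 100% (median 41.0%) and old cultures ranged from 0 to 38% (median 10%). The difference was 36.7 ± 25.3 points, with animal 2 at 0% at both ages. The other strand of that CpG differed by 24.3 points, and a second listed position 17 bp away also by 24.3 points.

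FGF5, which ends the growth phase of hair follicles, had 1 exon position (chromosome 6, 96745964). Young cultures ranged from 40 to 68% (median 60.0%) and old cultures from 14 to 47% (median 33.0%), a difference of 23.0 ± 15.4 points, and the other strand, which was not listed, differed by 28.7 points. FGF8, a ligand of limb and brain development, had 1 exon position in a CpG island (chromosome 26, 22375067). There young cultures ranged from 25 to 55% (median 50.0%) and old cultures from 0 to 33% (median 27.5%), a difference of 21.5 ± 18.7 points. Its other strand differed by 8.33 points, and both strands merged by 14 points. The 21 unlisted neighbours of this position averaged -0.508 points and ran from -18.8 to 29.7.

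FGF16 lies on the X chromosome and held 2 positions 71 bp apart in the CpG island of its promoter. At 79954755, which is also in an exon, young cultures ranged from 0 to 40% (median 27.0%) and old cultures from 0 to 17% (median 0.0%), a difference of 21.0 ± 15.4 points on a mean coverage of 7.08 reads. Both positions had the same coverage in each of the 12 cultures. All 9 unlisted neighbours were higher in young cultures, by 7.13 points on average. FGF12, which acts inside cells on sodium channels, held 3 intron positions. At chromosome 1, 75330282, young cultures ranged from 11 to 50% (median 18.5%) and old cultures from 0 to 22% (median 16.0%), a difference of 12.7 ± 11.0 points, and the other FGF12 positions differed by 11.7 and 10.2 points. FGF6, a ligand of skeletal muscle, had 1 promoter position that was at 100% in all 6 young cultures and at 80 to 100% in the old ones (11.5 ± 9.38 points).

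The FGF receptor genes had the second highest median size, 29.3 points over 7 positions, 4 more methylated in young and 3 in old cultures. FGFR1, the main FGF receptor of mesenchymal cells, held 5 of them in introns of chromosome 27, with both directions in different loci. The largest difference of all 77 positions was at 33286182, where young cultures ranged from 43 to 100% (median 87.5%) and old cultures from 20 to 55% (median 44.0%). It was 39.8 ± 24.3 points with the same sign in all 6 animals. Listed positions 10 and 89 bp away differed by 24.7 and 37.3 points, but all 3 had the same coverage in each of the 12 cultures, a mean of 7.75 reads. The 3 unlisted positions of that locus were also higher in young cultures, by 19.1 points on average.

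At another FGFR1 intron position (33276348), young cultures ranged from 20 to 100% (median 67.5%) and old cultures from 80 to 100% (median 92.5%), a difference of -29.3 ± 26.8 points. The other strand of that CpG differed by -24.3 points. At 33274257 (15.0 points) the other strand lay on the opposite side, at -6.33 points, and both strands merged gave 9.87 points. FGFRL1, a receptor without a kinase domain, had 1 position in a CpG island at its promoter and intron (chromosome 6, 109131881). Young cultures ranged from 20 to 57% (median 39.5%) and old cultures from 43 to 82% (median 73.0%), a difference of -32.3 ± 20.1 points in 1 direction in all 6 animals. FGFR2 had 1 intron position more methylated in old cultures (-15.7 ± 10.6 points). FGFR1OP2, whose product is not an FGF receptor, had 1 promoter position (10.3 ± 9.18 points), and the 11 unlisted neighbours of it averaged -0.0758 points.

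The EPH receptor genes held 9 positions, 4 higher in young cultures and 5 higher in old cultures, and their median size was 14.5 points. EPHA10, a member thought to lack kinase activity, held 3 exon positions on chromosome 3. At 108740640, in a CpG island, young cultures ranged from 0 to 43% (median 21.5%) and old cultures from 25 to 100% (median 55.0%), a difference of -31.5 ± 20.9 points. The other strand of the same CpG differed by 0.5 points, and both strands merged by -14.3 points, while the listed position 6 bp away (-20.2 points) had its other strand at -15.0 points. At 108775685 young cultures ranged from 67 to 100% (median 100%) and old cultures from 60 to 100% (median 73.0%), a difference of 13.7 ± 12.9 points.

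EPHB2, a receptor for B-type ephrins, held 4 intron positions over 172161 bp of chromosome 2. At 130703062 young cultures ranged from 8 to 56% (median 29.0%) and old cultures from 25 to 100% (median 50.0%), a difference of -27.2 ± 23.1 points with the same sign in all 6 animals. At 130615682 young cultures ranged from 80 to 100% (median 92.5%) and old cultures from 71 to 88% (median 84.0%), a difference of 10.5 ± 9.73 points, which was 6.8 points without animal 5. The 2 unlisted neighbours of that position had the opposite sign, with a mean of -4.75 points. EPHA2 and EPHB1, the other EPH receptor genes, had 1 intron position each, more methylated in young cultures by 14.5 ± 11.7 and 13.2 ± 11.5 points.

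The direction held in all 6 animals at 25 of the 77 positions (32.5%, against 42.0% of the annotated list), in 5 animals at 46 and in 4 at 6. The ages did not overlap at 3 positions (3.9%), those of AXIN2, FZD1 and GDF7, against 7.32% of the annotated list, 6.64% of the whole list and 0.123% of all tested positions. Among the 48 positions more methylated in young cultures, animal 1 had that sign at 45, animal 3 at 44, animal 6 at 43, and animals 2, 4 and 5 at 39 each. Animal 2 had the smallest median difference over these, 11.5 points, and animal 5 the largest, 21.5 points. Among the 29 more methylated in old cultures, each animal had that sign at 24 to 27. The selection by a paired P favours positions at which the animals share a sign, so these counts describe the positions and are no check of them. In at least 1 omission of an animal, 15 of the 77 differences were below 10 points.

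**Figure D4:**
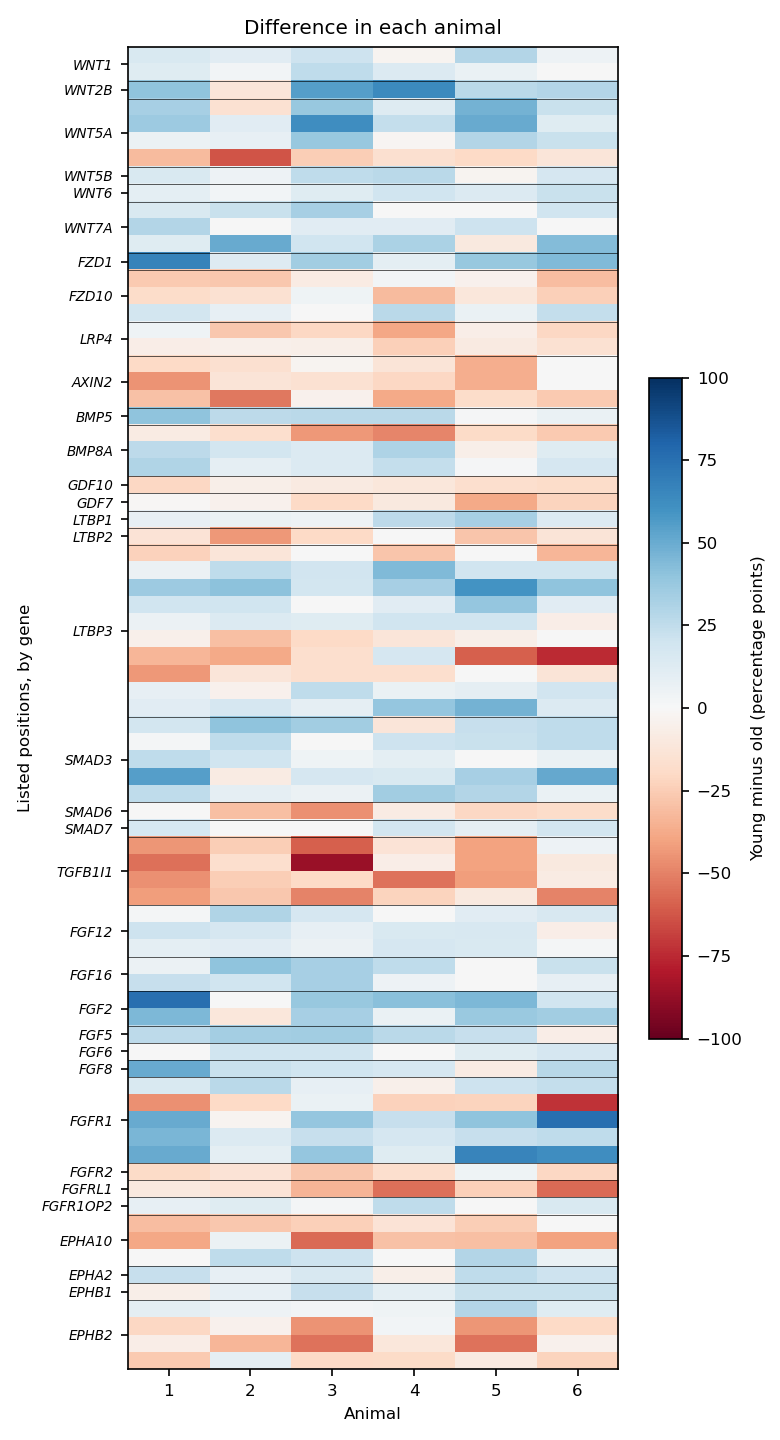
The map shows the young minus old difference in percentage points (colour scale from -100 to 100) of each animal (columns) at each of the 77 listed positions (rows, in order of gene). Blue means more methylation in the young culture and red more in the old culture; animal 2 has the opposite sign at 6 of the 48 positions of the first kind, and animal 3 at 0.

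The positions were chosen for their own values, whereas positions around them were not. Within 100 bp, 69 of the 77 had tested neighbours that were not listed, 290 in all. Signed by the direction of the listed position, these neighbours differed by 7.17 points on average (5.77 over the annotated list), and they lay on the same side at 57 of the 69 (82.6%, against 78.6%). Of the 290, 77 differed by at least 10 points. Reads that cover a listed position often cover its neighbours, so the neighbours are no separate measurement. The other strand of the CpG was tested for 24 positions. In 4 cases, the SMAD3 and TGFB1I1 pairs, it was listed too. In the other 20 it lay on the same side at 16 (80%, against 70.2% of the annotated list), with a signed mean of 10.1 points where the listed strand averaged 21.7. Merging the strands made the difference over 1.5 times smaller at 10 of the 24.

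Read numbers repeated between some listed positions. In 8 sets, 17 positions had the same coverage in all 12 cultures as another position of their locus. At 17 positions (22.1%, against 18.4% of the annotated list) each of the 12 cultures had an even number of reads. These included the WNT5A positions at 46108930 and 46109429, both LTBP3 positions around 44382640, and the named positions of FGF2, FGF8 and EPHA10. The methods count overlapping mates as separate reads, and their part in these values was not tested. All 12 cultures had 10 reads or more at 11 of the 77 (of tested positions with that many, 1.06% were called). The study took 10 reads as the least coverage for calling differentially methylated sites accurately. Of the 29 positions described above with ranges and medians, only WNT5A at 46108930 had that many in every culture. Nearest the limit on the inside of the list were LTBP3 at 44397107 (10.7 ± 10.1 points), EPHA10 at 108775685 (13.7 ± 12.9) and LTBP3 at 44392166 (-34.3 ± 32.4). Just outside it lay unlisted neighbours near EPHA2 (12.7 ± 12.3), FGFRL1 (-28.5 ± 27.8) and WNT1 (12 ± 11.8).

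Other genes of these pathways, taken from lists of 157 genes outside the symbol match, were on the list in 23 cases, 14 with positions more methylated only in young cultures, 8 only in old cultures and 1 with both. These are 60.9%, 34.8% and 4.35% of the 23, against 56.4%, 28.1% and 15.5% of the 2293 genes of the list. Of their 59 positions, 45 (76.3%) were higher in young cultures, against 67.6% of the annotated list. The 45 include 6, 9 and 6 positions of TCF7, TCF7L2 and LEF1. The lists of further genes were written with results of these data known, so these shares are descriptions only. What share of all genes was listed cannot be given from the annotation, so the counts of listed genes below stand without a background. Of 43 further WNT genes, 8 were listed. The nuclear partners of beta-catenin TCF7, TCF7L2 and LEF1 had 6, 9 and 6 positions, all more methylated in young cultures and reaching 28.7, 31.3 and 47.7 points. TCF7 had been selected by the study on these same cultures, for its higher methylation in the young ones. Its RNA, measured there by RT-qPCR, did not differ significantly between the ages, with or without lipopolysaccharide. The genes of the secreted proteins DKK2 and DKK3 had 2 and 4 positions, all more methylated in old cultures and reaching -40.3 and -30.2 points. The WNT inhibitor NKD1 had 1 in each direction. PORCN, which acylates WNT proteins, had 1 position more methylated in young cultures, and the kinase CSNK1E had 1 more methylated in old cultures.

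Of 35 further TGF-beta genes, 4 were listed, and all 11 of their positions were more methylated in young cultures: the activin receptor ACVR2B (5 positions, up to 23.8 points), the matrix protein THBS2 (3, up to 27.5), the co-receptor ENG (2, up to 21.2) and the repressor TGIF1 (1, 11.7). Of 20 further FGF genes, FRS3, an adaptor of FGF receptors, was the 1 listed (-11.3 points). Notch signalling was represented by 5 of 33 further genes. MAML2, a co-activator, HEYL, a target gene, and DTX1, a regulator of the receptor, were more methylated in young cultures by up to 22.7, 25.2 and 19.5 points, and the ligand DLL3 and the glycosyltransferase LFNG in old cultures (-13.5 and -15.8). Of 26 further ephrin and growth factor genes, IGF2, IGF1R and ERBB3 were more methylated in young cultures by up to 25.3, 24.2 and 16.0 points, and FLT1 and NRP2 in old cultures (-23.8 and -10.2). A gene that was not listed may have had no tested position, since the annotation covers the listed positions only.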

How the data were processed

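RRBS data of 12 cultures were used (6 animals, both ages). The authors' pipeline trimmed reads with Trim Galore 0.3.7 at a Phred score of 20, checked them with FastQC 0.11.1, aligned them with Bismark 0.13.1 to bosTau8 (BosTau8/BTau_4.6.1 in the methods, names of different assemblies), kept unique alignments and counted overlapping mates as separate reads. The deposited methylation ratio is a fraction, C/(C + T), with 2 decimals, and the deposited coverage is a count of reads at 1 strand of a CpG, not normalized. Gene, promoter and CpG island annotation is that of the authors' list. Their columns of mean difference, p-value and class were not used, apart from membership of the list, which their p-value set. That p-value is 1 where the mean difference is below 0.1, so the list was also chosen on size.

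The file columns carry the letters A and B. That A is the young and B the old culture was taken from the study's supplementary lists of sites by direction, and the sample labels do not state it. Columns were matched to animals by number. The fractions were averaged and differenced by animal with pandas 2.3.3, numpy 2.4.6 and scipy 1.17.1 in Python 3.11.15, and plotted with matplotlib 3.10.9. The background share came from a paired t-test of the methods, P below 0.05, a minimum difference of 0.1 and at least 5 reads in every culture, checked on simulated data. Same-numbered cultures are of 1 heifer. Their deviations from the age means correlated across positions with a median of 0.0435 (-0.0024 to 0.0899, 6 pairs). Between different animals the median was -0.0133 (-0.0498 to 0.0485, 30 pairs). The ranges overlapped, so these correlations hardly set the pairs of 1 heifer apart.

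The genes, lists and tests were chosen with earlier results of these data known. Values of cultures are given for the 10 largest differences per direction (1 per gene), the largest per direction in genes with 3 or more positions, and promoter positions of 20 points or more (29 positions, 21 genes). All 35 symbols were found in a RefSeq gene table of another assembly, whose coordinates were not used. No sequence is printed. Alternatives varied the coverage, the minimum difference, the pairing, strands, loci, averaging and windows, and left out animals.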

Additional observations from a re-analysis of the deposited data

Results flagged for a closer look

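In 3 of the 58 groups of 6 cultures at the named positions, 1 culture stood apart from the others of its age by Dixon's criterion, and chance alone gives about 1 in 20. At EPHA10 108775685, the young culture of animal 6 was the lowest at 67% on 6 reads, with the other young cultures at 88 to 100%. At FGFRL1 109131881, the old culture of animal 1 was the lowest at 43% on 14 reads, with the others at 71 to 82%. At TGFB1I1 27765660, the old culture of animal 3 was the highest at 100% on 8 reads, with the others at 50 to 57%.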

How the results depend on the processing

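Coverage and the minimum difference moved the counts most. Of the 14129 positions called among all tested, 2901 had 10 reads or more in each culture, 376 had 20 or more, and 3275 a difference of at least 0.25. With no minimum difference the count was 24094. With Benjamini-Hochberg adjustment of the paired t-test 0 were called, against 24094 at an unadjusted P below 0.05. Of the 48 positions more methylated in young cultures and the 29 in old cultures, 7 and 4 had 10 reads or more in each culture, 14 and 11 at least 8 (a setting chosen after the data were seen), 0 and 0 at least 20, and 8 and 12 a difference of at least 0.25. Without the replicate block, that is without pairing by animal, 16043 positions were called, and 34 and 20 of the 77. Merging the strands moved 6 of the 11 named positions with a tested other strand by over 1.5 times: LTBP3 44382640 from 38.0 to 14.6 points, EPHA10 108740640 from -31.5 to -14.3, FZD10 47936770 from 14.0 to 6.62, WNT7A 58832246 from 24.5 to 15.6, FGF8 22375067 from 21.5 to 14 and LTBP3 44400145 from 22.8 to 15.1. The first was the 1 of 214 alternative values at the 29 named positions that moved by over 1 SD, a wide measure at these positions.

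Leaving out each animal in turn gave 12866 to 14486 called positions, 43 to 45 and 28 to 29 of the members with a difference of at least 10 points in their direction, a median size of 17.2 to 18.6 points, and signed means of 6.37 to 8.19 points for neighbours and 7.68 to 12.3 points for the other strand. The omission of animal 5 took EPHB2 130615682 from 10.5 to 6.8 points, the 1 difference of 77 that moved by over 1.5 times. Joined into loci the split was 34 and 23 (the LTBP3 locus with both directions counts in each), with CpGs counted once 47 and 28, without TGFB1I1 and FGFR1OP2 47 and 25, and without positions of even coverage (also chosen after the data were seen) 36 and 24. The median size was 18.0 points from pooled reads, 18.0 as a median over animals, 15.8 with strands merged and 14.7 at 10 reads, and neighbours averaged 7.27 points within 50 bp and 5.93 within 500 bp. The depth, a median of 9 to 14 reads per culture at these positions, limits each ratio: at the 77 positions the SD over animals was a median of 13.6 points, and counting error alone would give 17.5, a comparison that the selection for low spread affects.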
